A study of Mus musculus with 8 samples.

Results

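A single T cell clone made up 13.8% of the cells with Cd8b1 transcripts in 1 of the 4 bone marrow pools of this study. It was the largest group of cells sharing both chains of the T cell receptor (TCR): an alpha chain (TRA) built from the segments TRAV6-6 and TRAJ48, and a beta chain (TRB) built from TRBV1 and TRBJ2-7. Members were chosen by measured values, namely the TRA contig and the TRB contig with the most unique molecular identifiers (UMIs, each marking 1 captured molecule) in a barcode, in replicate 2 of the RUNX1::RUNX1T1 group. All 1118 barcodes with these 4 segments carried the same pair of complementarity determining region 3 (CDR3) sequences, so none was dropped for another pair. The 1118 cells were found among 13583 cells kept in that pool and 55850 kept in the 4 pools.

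The study compared T cells of C57BL/6 mice that carry the leukemia fusion gene RUNX1::RUNX1T1 with those of Control mice, in 2 pools of mice per group. Per the methods, mice of the RUNX1::RUNX1T1 group carried a Runx1Runx1t1/+ allele together with the Mx1-Cre transgene, whose promoter is switched on by interferon, and the Control mice, labelled WT, carried the allele without Mx1-Cre. Both groups had been injected with Poly(I:C), an RNA mimic that raises interferon, and live CD3+ cells without mCherry, the reporter of the fusion, were sorted from bone marrow after negative enrichment of T cells. Each pool gave a 10x Genomics 5′ expression library and a TCR library. The expression library of replicate 1 held 102883449 UMIs for RUNX1::RUNX1T1 mice and 90958101 UMIs for Control mice, and that of replicate 2 held 100115383 and 99869646 UMIs. Because mice were pooled, how many of them held the clone cannot be told from these libraries, and since the clone was found in 1 pool, every value below describes that pool and carries no test between samples.

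During thymic development each T cell joins V, D and J segments for its beta chain and V and J segments for its alpha chain, trimming segment ends and adding untemplated bases at the joints. The resulting CDR3 is in practice a label that all descendants of the cell share. Cd8+ T cells recognize peptides on MHC class I, and naive cells, which express Ccr7, Tcf7 and Il7r, lose these genes and gain granzymes and inhibitory receptors such as Pdcd1, Lag3 and Tigit upon repeated stimulation. A large clone therefore lets differences of state be seen among cells that share a receptor.

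The CDR3 sequences that define the clone are shown first, because every cell described below was found by them. Bases in capitals match neither the germline end of the V segment nor that of the J segment. The first pair belongs to the clone, and the next pair are alpha chains found with the identical beta chain in other cells of the pool.
Clone TRB, TRBV1/TRBJ2-7: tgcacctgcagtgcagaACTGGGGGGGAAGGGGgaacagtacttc
Clone TRA, TRAV6-6/TRAJ48: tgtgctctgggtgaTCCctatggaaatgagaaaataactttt
Other TRA, TRAV6N-6/TRAJ9: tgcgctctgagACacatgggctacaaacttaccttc
Other TRA, TRAV6N-6/TRAJ17: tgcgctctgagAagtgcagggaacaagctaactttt

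The TRB sequence had 45 bases, of which 17 matched TRBV1, 12 matched TRBJ2-7 and 16 lay between them, with 10 of these in a run shared with the D segment Trbd2. The TRA sequence had 42 bases, with 14 from the V end, 3 at the joint and 25 from TRAJ48. When the V end was instead read from the CDR3s of other cells that use the segment, 16 bases of the TRA matched and 1 was left at the joint, while the TRB division was the same. On GRCm38 (GENCODE M21), all on the plus strand, Trbv1 lies at chr6:40891229-40891885, Trbj2-7 at chr6:41543810-41543856, Trav6-6 at chr14:53516929-53517366 and Traj48 at chr14:54169808-54169868, each annotated as a TCR segment gene. The exons of Trav6-6 and Trav6d-6 are the same 344 bases with 0 mismatches, so the V call of the alpha chain is uncertain between these copies.

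Both chains were read in every member. All 1118 members had exactly 1 productive TRA and 1 productive TRB contig, and none had a further productive chain. By counting error alone, this allows a share of up to 0.268% of members. Of the 7840 other kept barcodes with both chains, 1651 (21.1%) had an extra chain, and the reason for this difference was not tested. Contigs that are not productive were not analysed here, and cells that gave no contig could not be assigned, so the limit covers neither. Trav17, a V gene of no contig of the clone, had a UMI in 50.6% of members. TRA contigs had a median of 6 UMIs per member (range 1 to 21) and TRB contigs a median of 17 (range 1 to 67). A single UMI supported the TRA in 28 members and the TRB in 1 member. The constant segment was TRBC2 in 1117 members. No member fell under the limit of 200 genes or over that of 15% mitochondrial UMIs. The members nearest to these limits had 453 genes and 4.14% mitochondrial UMIs, and the barcodes of the pool just beyond them had 187 genes and 15.0164%.

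The beta chain was also found without the clone's alpha chain. In the pool, 1268 kept barcodes held the TRB CDR3 and 1129 held the TRA CDR3. Of the 150 barcodes with the TRB but another or no alpha chain, 91 had no TRA contig. TRAV6N-6/TRAJ9 was paired with it in 20 barcodes, and in 12 more that also held a second TRB. TRAV6N-6/TRAJ17 was paired with it in 8 barcodes, and in 19 that also held a second TRB. In both sets of 3 chains the second TRB joined TRBV1 to TRBJ1-3, with a different CDR3 in each set. The TRA alone was seen in 11 barcodes.

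No contig of the other 3 pools held either CDR3. The count of 0 allows a share of up to 0.0401% of Cd8b1 cells in replicate 1 of the RUNX1::RUNX1T1 group, and of up to 0.0503% and 0.0452% in replicates 1 and 2 of the Control group, limits that cover counting error only. They are too tight, since 13.9%, 11.3% and 8.50% of these Cd8b1 cells, in the same order, gave no contig but are counted as lacking the clone. Barcodes are drawn from a shared list, and the pool had 280, 269 and 287 barcodes in common with the other pools in that order, of which 18, 22 and 15 belonged to the clone. Among alpha chains with the same segments and length, the fewest mismatches outside the pool was 1, in Control replicate 2. A further alpha chain of that pool, in 1 cell, encoded the same peptide with other bases at the joint.
Control TRA, TRAV6-6/TRAJ48: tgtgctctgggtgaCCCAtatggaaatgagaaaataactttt
This sequence differed from the clone by T15C and C18A, counted from 1 at the 5′ end of the CDR3 with the clone's base first. Among beta chains with the same segments and length, none outside the pool came closer than 5 mismatches, the fewest in each Control pool, and the fewest in replicate 1 of the RUNX1::RUNX1T1 group was 7.

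The clone was far larger than any other clonotype. Cells with at least 1 UMI of Cd8b1, which encodes the beta chain of the CD8 coreceptor, are called Cd8b1 cells here. They numbered 8001 in the pool, and 1103 of them belonged to the clone, a share of 13.8% (exact Clopper-Pearson 95% interval 13.0 to 14.6, counting error only). Among the 5837 Cd8b1 cells with both chains the share was 18.9%. Its 15 members without a Cd8b1 UMI all had a Cd8a UMI. The second and the third clonotype, TRAV12D-3/TRAJ11 with TRBV14/TRBJ2-7 and TRAV8D-2/TRAJ5 with TRBV26/TRBJ1-5, had 159 and 155 cells, so the clone held 6.94 and 7.12 cells for each of theirs. The largest clonotype of the other pools had 114 cells in replicate 1 of the RUNX1::RUNX1T1 group, and 14 and 22 cells in replicates 1 and 2 of the Control group.

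**Figure D1:**
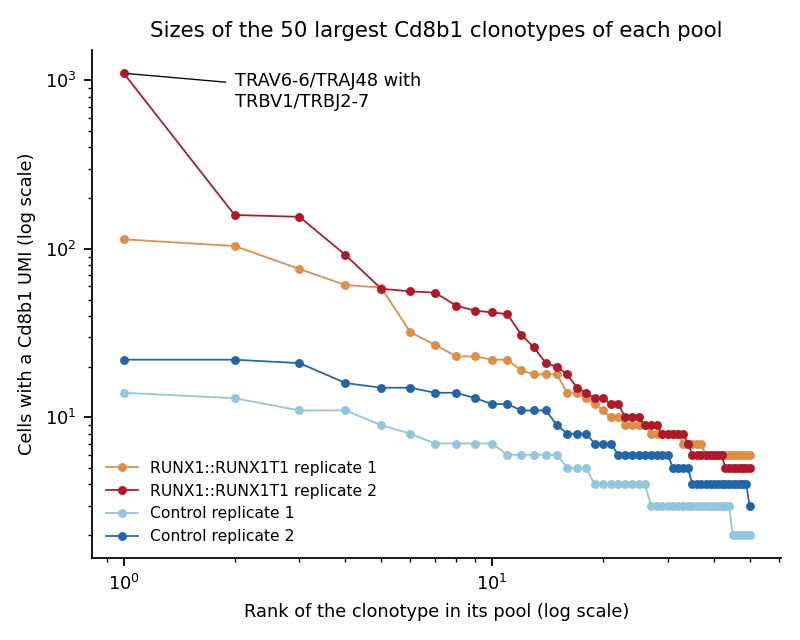
Number of cells with a Cd8b1 UMI in each of the 50 largest clonotypes of a pool (vertical axis, log scale) against the rank of the clonotype in its pool (horizontal axis, log scale), with 1 line per pool. The clone is the single point at 1103 cells, and the next point of its pool is at 159.

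The segments of the clone were also used by other clonotypes of its pool. TRAV6-6 was in 129 of 3487 Cd8b1 clonotypes (3.70%), TRAJ48 in 98 (2.81%), TRBV1 in 56 (1.61%) and TRBJ2-7 in 749 (21.5%).

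Members were smaller in RNA content than most Cd8b1 cells. They had a median of 5817 UMIs per cell (10th to 90th percentile 4384.5 to 7399.3) and 2271.5 genes. The 6898 other Cd8b1 cells of the pool had a median of 8026 UMIs and 2416 genes, the 845 Cd8b1 cells in the 14 other clonotypes of at least 20 cells had 6035 UMIs, and the 3329 in clonotypes of 1 cell had 8736. These 845 and 3329 cells are called expanded and single cells below. Mitochondrial UMIs took a median of 0.780% in the clone, 1.07% in expanded cells, 1.69% in other Cd8b1 cells and 1.90% in single cells. Since depth differed, shares of cells with a UMI are given after each cell was thinned to 2000 UMIs. Shares of TCR genes, and those marked so, were read before thinning. Thinning left out 9 members, 152 other Cd8b1 cells, 3 expanded cells and 13 single cells.

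The label of a Cd8+ T cell held. Cd3e, a subunit of the CD3 complex, had a UMI in every member before thinning and in 99.0% at 2000 UMIs. Cd8a and Cd8b1 had a UMI in 81.8% and 82.2% of members at 2000 UMIs. Cd4 had a UMI in 16 members before thinning (1.43%) against 11.6% of other Cd8b1 cells. Ms4a1, Ebf1 and Pax5 were among the B cell markers at 0 in the clone, and the list of 6 summed to 0.905 UMIs per 1000000 UMIs of the class (CPM) against 10.4 in other Cd8b1 cells, with Cd79b as its most abundant gene. The 8 myeloid markers summed to 9.35 CPM against 45.7, led by Mpo, and Elane was at 0. The 6 erythroid markers summed to 27.9 CPM against 7.46 in other Cd8b1 cells and 52.6 in expanded cells. Hbb-bs, a beta globin gene and the most abundant of them, had a UMI in 1.16% of members before thinning. The 3 CD4 lineage markers summed to 9.50 CPM against 56.5, with Cd4 the highest.

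Against the other Cd8b1 cells of its pool, the clone had high levels of most cytotoxic genes and inhibitory receptors and of Cd200r2, Tmprss6 and Glp1r, and low levels of most naive genes. Levels were CPM, with UMIs summed over the cells of a class. Of 10636 genes with at least 100 UMIs over both classes, 929 (8.73%) were at least 2-fold higher and 1089 (10.2%) at least 2-fold lower in the clone. The median log2 ratio of these genes was 0.22. After scaling by the median of ratios, which sets that median near 0, 613 genes were higher and 1342 lower, and the higher ones made 31.4% of the called genes instead of 46.0%. TCR segments made up 10 of the higher and 89 of the lower genes. Those the clone uses chose its members, so they are not findings. There were fewer differences from expanded cells, where 160 of 8080 genes (1.98%) were higher and 228 (2.82%) lower, than from single cells, where 1404 of 9747 genes (14.4%) were higher and 919 (9.43%) lower. Counts of gene groups against expanded cells below stand beside the shares of 1.98% and 2.82%. Of 8080 genes measured against both other Cd8b1 cells and expanded cells, 141 were 2-fold higher in the clone than in both, and 161 were lower than in both. The classes overlap, since expanded and single cells are part of the other Cd8b1 cells.

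Cd200r2 had the highest ratio. It encodes a receptor of the CD200R family, and its 1387 UMIs in the clone gave 209 CPM against 11.0 CPM in other Cd8b1 cells, a 19.1-fold difference with a log2 ratio of 4.25 (95% interval 4.12 to 4.39). The level was 28.4 CPM in expanded cells and 0.671 CPM in single cells. In the other pools it was 3.01 CPM in replicate 1 of the RUNX1::RUNX1T1 group, and 0.0876 and 0.177 CPM in replicates 1 and 2 of the Control group. At 2000 UMIs, 30.5% of members and 2.24% of other Cd8b1 cells had a UMI. Before thinning these shares were 57.2% and 5.39%. Thus the clone stood above these classes and pools, while most members had no Cd200r2 UMI at 2000 UMIs.

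Gzma, which encodes the cytotoxic protease granzyme A, was the most abundant gene of this group. Its level was 3945 CPM in the clone, 333 CPM in other Cd8b1 cells, 567 CPM in expanded cells and 66.4 CPM in single cells, and the log2 ratio of the clone to other Cd8b1 cells was 3.57 (3.54 to 3.59). In the other pools it was 312, 58.2 and 65.7 CPM in the order used above. It was found in 74.8% of members at 2000 UMIs, against 11.8% of other Cd8b1 cells.

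Further genes with the highest ratios included Tmprss6, a membrane serine protease known for iron regulation in the liver (176 against 9.60 CPM, log2 ratio 4.19), Glp1r, the receptor of the hormone GLP-1 (118 against 9.32 CPM, 3.67), Htra3, a secreted serine protease (28.6 against 1.84 CPM, 3.96), and Cited4, a transcriptional coactivator (53.8 against 3.09 CPM, 4.12). Bhlhe41, a transcriptional repressor of the circadian clock, was 21.6 against 1.78 CPM, and Cd244a, a receptor of the SLAM family, 163 against 15.8 CPM. Tmem273, Ccdc80, Spats2, Osgin1, Mrc2, Gm28942 and Mapk8ip1 completed the 15 genes with log2 ratios between 3.26 and 4.04. All 15 were higher in the clone than in expanded cells, with log2 ratios from 1.48 (Cd244a) to 3.32 (Tmprss6). A list of 6 cytotoxic cluster genes seldom described in T cells had 5 tested. Of these, Cd200r2, Tmprss6, Glp1r and Lim2 (9.65 against 0.825 CPM) were higher. Gcg, the glucagon gene, was lower (4 UMIs, 0.603 against 5.02 CPM). The list was chosen with earlier results of these data known, so its count is not independent evidence of a direction. Among the classes and pools plotted, expanded cells came second to the clone for each of the 15.

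At the other end, Gzmm, which encodes granzyme M, had 3 UMIs in all 1118 members, 0.452 CPM against 52.9 CPM in other Cd8b1 cells (log2 ratio −6.87, 95% interval −9.15 to −5.32). It was 3.25 CPM in expanded cells and 69.1 CPM in single cells, and 59.6, 28.5 and 41.6 CPM in the other pools. So Gzmm was nearly absent from the cells in which Gzma was 3945 CPM. Ly6c2, a surface marker of memory Cd8+ T cells, was 37.8 CPM in the clone, 1621 CPM in other Cd8b1 cells and 481 CPM in expanded cells. Ccr7, the chemokine receptor that guides naive cells to lymph nodes, was 12.1 CPM against 634 CPM (−5.72), while expanded cells had 13.3 CPM. The lowest 15 also held Sh3bp5, Dapl1, Atp1b1, Cmah, Ms4a4c, Tanc1, Tdrp, Cxcr5, Gm14085, Fcgrt and Satb1, with log2 ratios of −4.95 (Satb1) or lower. Of these, Tdrp (0.30) and Gm14085 (0.23) were slightly higher in the clone than in expanded cells, each on fewer than 10 UMIs per class.

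**Figure D2:**
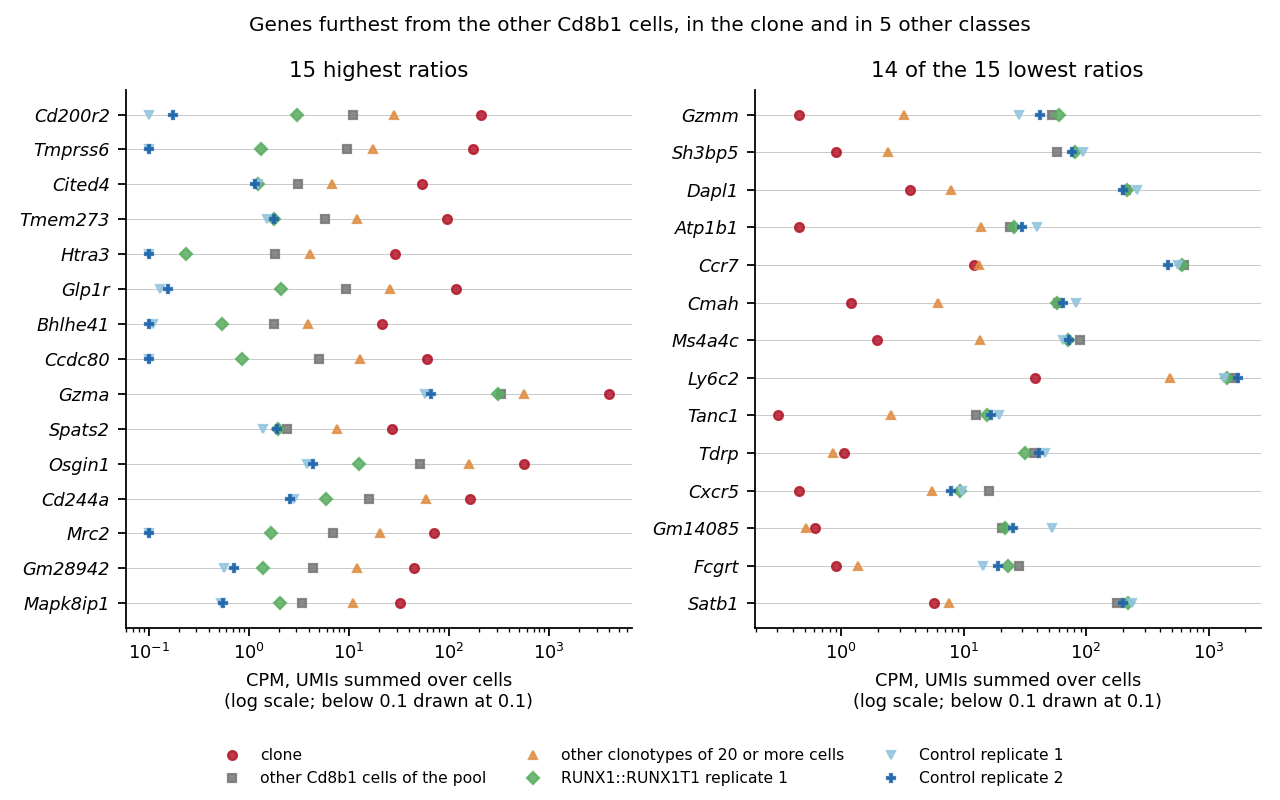
Levels of the 15 genes with the highest and 14 of the 15 with the lowest ratio of clone to other Cd8b1 cells, in CPM of UMIs summed over cells (horizontal axes, log scale, values below 0.1 drawn at 0.1). Each symbol is 1 class of Cd8b1 cells or all Cd8b1 cells of another pool. Cd200r2 stands at 209 in the clone and 28.4 in expanded cells, and Gzmm at 0.452 and 3.25.

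Naive and stem-like genes were low. Of 14 genes tested, 11 were at least 2-fold lower and none was 2-fold higher, with a median log2 ratio of −4.46. Tcf7, the transcription factor of naive and self-renewing T cells, was 10.7 CPM against 275 CPM, Lef1, its relative, 6.33 against 151 CPM, and Il7r, the receptor of the survival cytokine IL-7, 5.13 against 105 CPM. S1pr1, needed to leave tissues, was 5.43 against 92.9 CPM. Klf2, a factor that drives S1pr1, was 173 against 1825 CPM, and Cd28, the main costimulatory receptor, 130 against 303 CPM. The 3 genes within 2-fold were Bach2 (log2 ratio −0.50), Foxp1 (−0.45) and Cd27 (0.31). Against expanded cells, 6 of 11 genes were at least 2-fold lower and none was 2-fold higher, but Bach2 (27.6 against 17.4 CPM, 0.66) and Foxp1 (131 against 94.9 CPM, 0.46) turned to the higher side and Cd27 to the lower (−0.40). Slamf6, a receptor of stem-like T cells, was 2.26 CPM against 34.4 CPM in expanded cells (−3.93), and Tcf7 was 10.7 against 41.2 CPM (−1.94), whereas Ccr7 was alike within its interval (−0.14, −0.61 to 0.32).

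Among 15 cytotoxic effector genes, 10 were at least 2-fold higher and 2 lower than in other Cd8b1 cells (median log2 ratio 1.62). Besides Gzma, the ratios were 1.60 for Gzmb (588 against 194 CPM), 1.62 for Gzmk (732 against 238 CPM) and 1.64 for the pore-forming protein gene Prf1 (199 against 64.0 CPM). Nkg7, a cytotoxic granule protein, was 6604 against 2115 CPM, and the death ligand gene Fasl 276 against 99.1 CPM. Ccl5, a chemokine, alone accounted for 45882 CPM in the clone, 12030 CPM in other Cd8b1 cells and 3418 CPM in single cells. The 2 lower genes were Gzmm and Tnf, the inflammatory cytokine (15 UMIs, 2.26 against 41.2 CPM, −4.19). Ifng, the other cytokine gene of the list, was 165 against 123 CPM (0.43). In comparison with expanded cells only Gzma was 2-fold higher and only Tnf lower (2.26 against 29.2 CPM, −3.69), among the 14 genes tested. Gzmb (−0.24), Gzmk (−0.15) and Ccl3 (−0.073) turned slightly to the other side there, and Ifng turned further, at 165 against 284 CPM (−0.78).

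Inhibitory receptors were mostly higher. Of 12 genes, 10 were at least 2-fold higher and 1, Btla, was lower (1.06 against 9.43 CPM), with a median log2 ratio of 2.05. Pdcd1, which encodes PD-1, was 381 CPM in the clone, 71.3 CPM in other Cd8b1 cells, 278 CPM in expanded cells and 9.90 CPM in single cells. At 2000 UMIs it was found in 51.9% of members (49.0 to 54.9) and 1.87% of single cells. Lag3 was 631 against 147 CPM and Tigit 863 against 232 CPM, in 69.5% and 83.2% of members. Cd160 was 272 against 67.9 CPM, Entpd1, which encodes the ectoenzyme CD39, 112 against 29.3 CPM, and the further CD200R genes Cd200r1 and Cd200r4 119 against 16.9 CPM and 115 against 14.7 CPM. Ctla4 stayed within 2-fold (323 against 188 CPM, 0.78). Havcr2, which encodes TIM-3, was 60.8 against 24.4 CPM (1.31), but expanded cells had 100 CPM (−0.73). Against expanded cells 5 genes were 2-fold higher, namely Cd200r2, Cd244a, Cd200r4, Cd200r1 and Cd160, and none was 2-fold lower.

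Transcription factors of effector and exhausted cells were mixed, with 7 of 17 higher and 1 lower. Nr4a2, an orphan nuclear receptor induced by TCR signals, was 1204 against 245 CPM (2.30), but its relative Nr4a1 was 70.7 against 306 CPM (−2.11). Tox, which sustains exhausted cells, was 551 against 142 CPM (1.95) and was found in 65.1% of members at 2000 UMIs. Ikzf2, Prdm1, Tbx21, Tox2 and Runx3 were higher with log2 ratios between 1.01 and 1.65, of which Runx3 fell under 2-fold (0.78) with median of ratios scaling, and Eomes was alike (137 against 134 CPM). None of 16 was 2-fold higher than in expanded cells, where 3 were lower. These were Maf (34.1 against 144 CPM, −2.08), Irf4 (−1.27) and Nr4a1 (70.7 against 142 CPM). Tox2 (39.6 against 70.1 CPM, −0.82) and Prdm1 (83.8 against 101 CPM, −0.26) turned to the lower side there.

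NK-related receptors went the other way, with 10 of 14 lower and 1 higher. Klrg1, a receptor of terminal effector cells, had 3 UMIs in the clone, 0.452 CPM against 17.8 CPM in other Cd8b1 cells and 31.96 CPM in expanded cells (−6.14). S1pr5 had 0 UMIs, a log2 ratio of −2.70 or lower when 3 counts are set in its place. Cx3cr1 was 1.66 against 8.16 CPM. Klrk1, which encodes NKG2D, was 7.39 against 62.7 CPM. The exception was Cd7, an adhesion and costimulatory molecule of T and NK cells, at 3283 CPM against 397 CPM in other Cd8b1 cells and 1062 CPM in expanded cells. It was found in 98.5% of members at 2000 UMIs and in 34.6% of other Cd8b1 cells. Of the 5 NK cell markers, Eomes was the most abundant, 1 of 4 tested was lower and none higher, and Ncr1 had 8 UMIs in the clone.

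The 5 genes that the study lists for T cells it calls tumor-reactive, Adgrg1, Pdcd1, Osgin1, Lag3 and Chn2, were all at least 2-fold higher (median log2 ratio 2.73). They were chosen on these samples, and the clone is part of them, so this is not independent evidence of a direction. Adgrg1, an adhesion G protein-coupled receptor, was 253 CPM in the clone, 38.1 CPM in other Cd8b1 cells, 138 CPM in expanded cells and 5.85 CPM in single cells. Chn2, a regulator of the GTPase Rac, was 299 against 33.2 CPM.

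Costimulatory and homing genes were split. Tnfrsf9, which encodes the activation receptor 4-1BB, was 426 against 67.3 CPM (2.66) and Tnfsf10, the death ligand TRAIL, 70.7 against 20.6 CPM, while Tnfrsf4, which encodes OX40, was 5.43 against 52.1 CPM, Cd40lg 0.603 against 8.35 CPM and Slamf7 7.99 against 29.6 CPM. The other 4 of 9 were within 2-fold. Tnfsf8, the CD30 ligand gene, was level with other Cd8b1 cells (0.21) but 40.4 against 5.81 CPM in expanded cells (2.80). Cxcr6, a chemokine receptor of tissue-resident cells, was 741 against 152 CPM (2.28) and Itga4, the alpha 4 integrin gene, 550 against 199 CPM. Itgae, the integrin gene of epithelial resident cells, was 1.36 against 8.11 CPM, Cxcr4, the receptor for the marrow chemokine CXCL12, 24.1 against 192 CPM (−2.99), and Ccr2 2.56 against 40.6 CPM (−3.99). With Itgb7 and Ccr9, 5 of 12 homing genes were lower, and 2 were higher. Against expanded cells, none of 9 homing genes tested was 2-fold higher and 3 were lower, beside 1.98% of all genes higher and 2.82% lower.

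Counts for recent stimulation, interferon response, cell division and TCR signaling stand beside 8.73% of all genes higher and 10.2% lower. Of 12 immediate early genes none was higher and 2, Nfkbia (358.5 against 1622 CPM) and Egr2 (1.36 against 4.26 CPM), were lower. Jun was 425 against 766 CPM and Fos 249 against 433 CPM, and both became 2-fold lower with median of ratios scaling. Of 11 interferon-stimulated genes in the files, 2 were lower, Ly6a (10.1 against 146 CPM) and Usp18 (6.63 against 17.8 CPM), and Isg15 was 42.2 against 35.6 CPM. Of 22 proliferation genes, 6 were lower, among them Ccnb1 and E2f1. Zwint was higher (96.2 against 44.7 CPM), but under 2-fold with median of ratios scaling. Mki67 was 27.9 CPM in the clone, 43.1 CPM in other Cd8b1 cells and 73.5 CPM in expanded cells. Within proximal TCR signaling, Cd3e (2536 against 1143 CPM) and Cd3g (2358 against 962 CPM) were higher and Cd4 was lower among 19 genes. The share called was near that of all genes. Cd3e was under 2-fold with median of ratios scaling, and both Cd3 genes were so against expanded cells (log2 ratios of 0.34 and 0.37). Cytokine receptors included 2 higher genes, Il10ra and Il2rb (1506 against 516 CPM), the shared receptor chain of IL-2 and IL-15. The 5 lower genes included Il18r1 (1.66 against 29.3 CPM). Il10ra was under 2-fold with median of ratios scaling. Of 7 cytokine receptors tested against expanded cells none was 2-fold higher or lower, and Il10ra turned to the lower side (−0.45). In that comparison only 1.98% of all genes were higher and 2.82% lower, so a count of 0 among 7 says little.

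**Figure D3:**
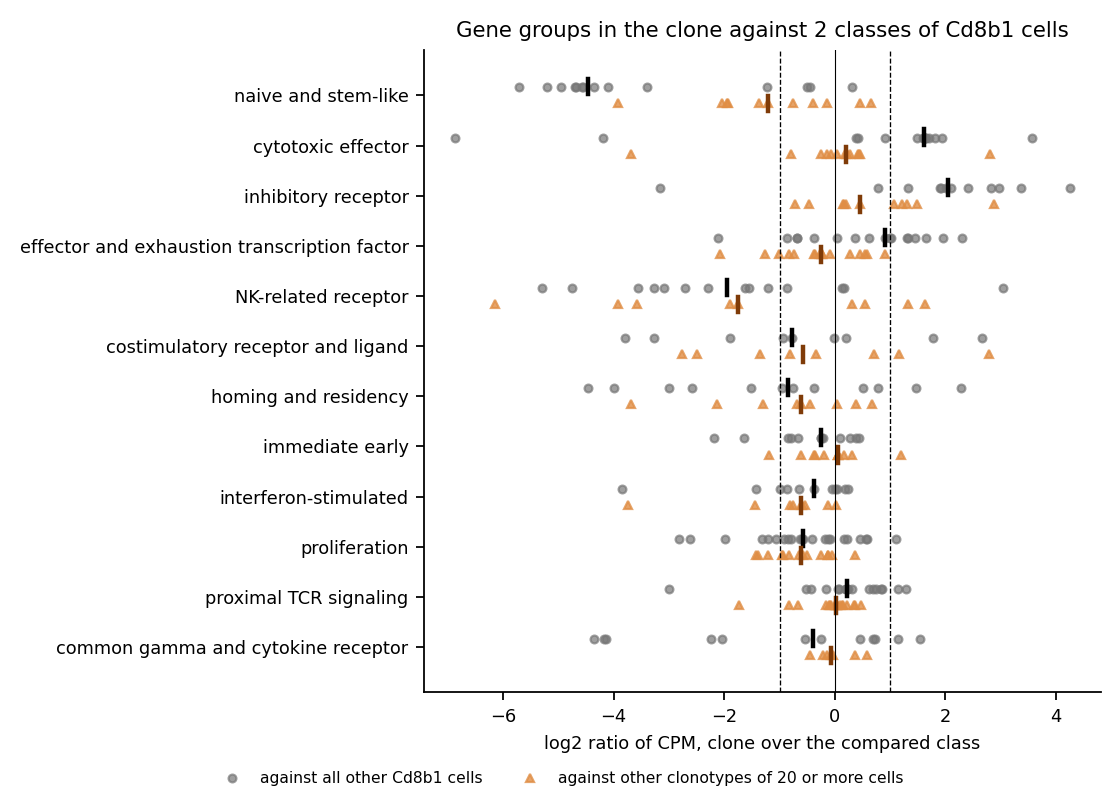
log2 ratio of CPM in the clone over all other Cd8b1 cells (gray circles) and over expanded cells (orange triangles) for each gene of 12 groups, with a bar at the median of the group and dashed lines at 2-fold. The median of the naive group moves from −4.46 against other Cd8b1 cells to −1.20 against expanded cells, and that of cytotoxic effectors from 1.62 to 0.20.

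Transcripts of some gamma TCR constant genes were higher in the clone. These genes are close copies of one another, so reads may be divided between them uncertainly. Tcrg-C1 had 406 UMIs in the clone, 61.2 CPM against 4.27 CPM in other Cd8b1 cells (log2 ratio 3.84, 3.61 to 4.07), 1.37 CPM in expanded cells and 0 in both next largest clones. Tcrg-C2 was 56.8 against 7.77 CPM (2.87), with 21.4 CPM in expanded cells, 48.9 CPM in the second clone and 0 in the third. Tcrg-C4 was 3.02 CPM against 5.19 CPM in other Cd8b1 cells and 18.1 CPM in expanded cells. A Tcrg-C1 UMI was seen in 26.9% of members before thinning. Trdc, the delta constant gene, was lower at 2.26 against 5.18 CPM, and had a UMI in 0.805% of members. Of the 5 gamma-delta markers tested, Tcrg-C1 and Tcrg-C2 were higher and Trdc was lower.

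The second and the third clone of the pool did not share 1 profile. The second clone, of 159 cells, was near the large clone in Pdcd1 (320 CPM), Lag3 (594), Tigit (923), Tox (438), Nkg7 (6043) and Ccl5 (60139), and apart from it in Gzma (692 CPM), Cd200r2 (24.9) and Tmprss6 (31.9). Of the same 15 leading genes it was within 2-fold of the large clone in Cd244a (125 against 163 CPM), Bhlhe41 (14.97 against 21.6 CPM) and Htra3 (16.96 against 28.6 CPM). The third, of 155 cells, had 23.5 CPM of Pdcd1, 13.8 CPM of Gzma, 0 of Cd200r2 and 323 CPM of Cd7, together with 1704 CPM of Ly6c2 and 140 CPM of Tcf7. Pairs of clones were not tested, since each is 1 set of cells from 1 pool.

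The 145 other Cd8b1 cells that carried 1 chain of the clone lay between the clone and other Cd8b1 cells in some genes. Their level of Cd200r2 was 85.7 CPM, of Tmprss6 78.8 CPM and of Tmem273 51.4 CPM. In other genes they were above the clone, with 716 against 631 CPM of Lag3, 977 against 863 CPM of Tigit and 862 against 588 CPM of Gzmb. They are counted among the other Cd8b1 cells, and 20 of them, with TRAV6N-6/TRAJ9, among the expanded cells. Of the 145, 78 had the clone's TRB and 9 had its TRA with no other chain read. Whether these cells belong to the clone could not be told, and their levels were not read apart from the rest. When the comparison was limited to other Cd8b1 cells with both chains and no CDR3 of the clone, a choice made after seeing the data, 997 genes were higher and 934 lower.

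Most cells of the clone were gathered in 1 cluster at a resolution of 1. In a graph clustering of the 6898 other Cd8b1 cells together with all members, 1038 members, 92.8% (91.2 to 94.3), fell in 1 of 12 clusters, numbered 7. That cluster held 1538 cells, 67.5% of them of the clone, and its leading genes were Cd200r2, Htra3, Tmem273, Cited4 and Tmprss6. It had 6 of 6 cytotoxic markers and 5 of 6 exhausted markers at 2-fold or more over the remaining cells, but since clone cells are most of the cluster these genes describe the clone again. The cluster also held 18.3% of expanded cells and 0.451% of single cells. The other Cd8b1 cells, chosen by at least 1 UMI, also held cells that resembled other types. Of them, 4.52% lay in cluster 2, led by Foxp3, a gene of regulatory T cells, and 0.623% in cluster 11, described below. Normalized Shannon entropy over the clusters is 0 when all cells share a cluster and 1 when they are spread evenly. It was 0.153 for the clone, 0.602 for expanded cells, 0.657 for single cells and 0.868 for other Cd8b1 cells. The classes besides the clone pool many clonotypes, so differences between clonotypes add to their entropy. At a resolution of 2 the clone had 0.366 and other Cd8b1 cells 0.910. With proliferation genes kept these values were 0.240 and 0.864.

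The next clones differed in their spread. The second clone reached 7 clusters with an entropy of 0.514, and its largest share was 45.9% (38.0 to 54.0) in cluster 9, led by Spp1, Coch, Il10 and C2cd4b, with 32.1% in cluster 7. The third clone had an entropy of 0.0865 and 95.5% (90.9 to 98.2) of its cells in cluster 10, led by Lmo1, Ifit3, Gdf11 and Ly6a. The share of the large clone in its main cluster was 94.7% at a resolution of 0.5, 94.6% after thinning each cell to 2000 UMIs and 84.5% with proliferation genes kept, but 49.1% at a resolution of 2, where it was split over more clusters.

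**Figure D4:**
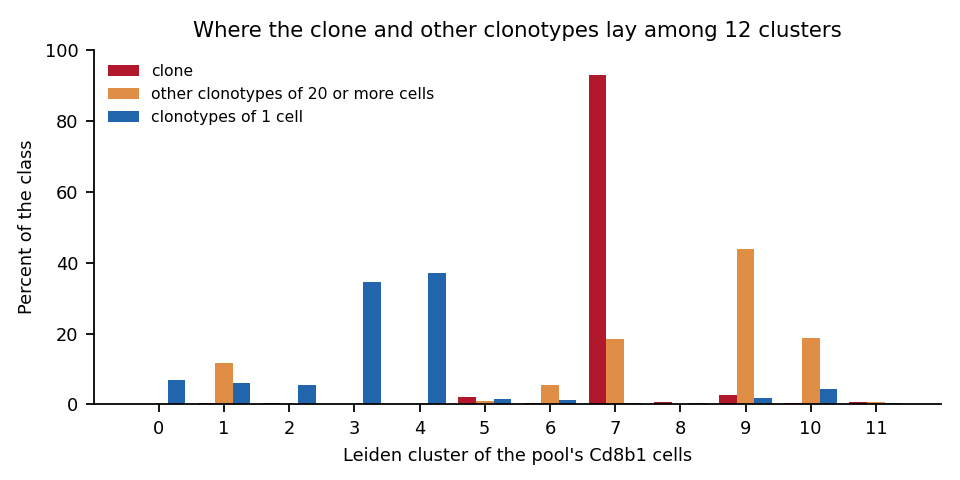
Percent of the clone, of expanded cells and of single cells in each of 12 Leiden clusters of the pool's Cd8b1 cells (bars start at 0). The clone has 92.8% in cluster 7, expanded cells have 43.8% in cluster 9, and single cells lie mainly in clusters 3 and 4.

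Of the 80 members outside cluster 7, 31 lay in cluster 9, 22 in cluster 5, led by the DNA replication genes Chek1, Gins1 and E2f1, 7 in cluster 8 and 6 in cluster 11, with Mpo, Gata2, Cpa3 and Cd34 among its 10 leading genes. Scrublet, which scores barcodes for resemblance to simulated doublets, marked 10% of the 80 and 0.385% of the 1038, although the median depth was 5821.5 and 5817 UMIs. The 80 had 1218 CPM of Fos against 162 CPM in the rest, 1796 against 301 CPM of Jun, 130 against 18.7 CPM of Mki67 and 1331 against 25.8 CPM of Cpa3, a mast cell protease gene. Before thinning, the share of cells with a UMI differed less. It was 56.25% against 57.1% for Jun, 11.25% against 9.06% for Mki67 and 18.75% against 12.8% for Cpa3. The cells with a UMI thus held more UMIs of these genes each among the 80. Gzma was 909 against 4218 CPM, Tmem273 27.4 against 101 CPM and Cited4 16.5 against 57.2 CPM, but these 3 are among the leading genes of cluster 7, as Cpa3 is of cluster 11. The 80 were set apart by their expression, so the higher and the lower values alike are a description. The part of doublets in these values was not tested.

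Most genes also varied less from cell to cell within the clone than among other Cd8b1 cells. Other Cd8b1 cells and expanded cells pool many clonotypes, so differences between clonotypes add to their spread. The spread inside another single clone was not computed. The Fano factor, the variance of UMIs over cells divided by their mean, is about 1 for pure counting noise and was computed at 2000 UMIs per cell. Of 2518 genes with a mean of at least 0.1 UMI in both classes, 1866 (74.1%) had a lower Fano factor in the clone than in other Cd8b1 cells, and of 2844 genes compared with expanded cells, 1804 (63.4%) did. Values of at least 1.5 were reached by 50 of the 2518 genes in the clone and 173 in other Cd8b1 cells. The clone's median was 1.01 and that of other Cd8b1 cells 1.04, so most genes were near counting noise in both.

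The genes that did vary within the clone were few. Of 3173 genes with a mean of at least 0.1 UMI, 52 reached a Fano factor of 1.5 and 24 reached 2. Gzma led the protein-coding genes with 11.5. Per member at 2000 UMIs, its 10th percentile was 0 UMIs, its median 5, its 90th percentile 21 and its maximum 57. Cpa3 followed with 10.3, from a mean of 0.133 UMIs. Before thinning, 728 of its UMIs were in the 80 members outside cluster 7 and 157 in the 1038 inside, so few members carried most of them. The chemokine genes Ccl5, Ccl4 and Ccl3 had 8.10, 6.01 and 4.19, although other Cd8b1 cells had 66.3, 16.9 and 7.01. Jun (4.32) and Fos (2.91), Junb (2.64), Rgs1 (3.02), an inhibitor of chemokine receptor signaling, and the calcium binding proteins S100a6 (3.02) and S100a4 (2.84) were also among the 15 highest. Gm42418, Gm26917, H3f3b and Malat1 completed the 15. Of the 15, Jun and Cpa3 had a higher Fano factor in the clone than in other Cd8b1 cells (3.68 and 9.57), as did H3f3b (3.09 against 2.79).

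**Figure D5:**
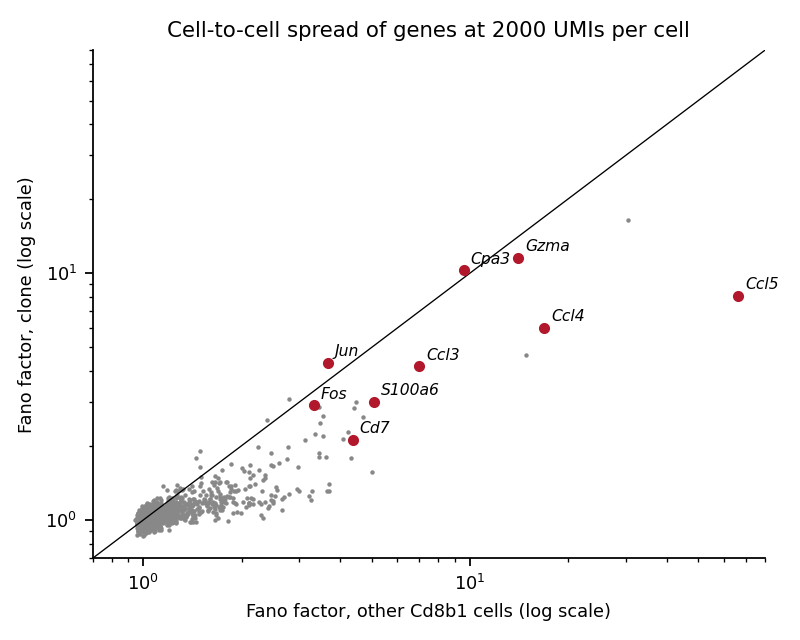
Fano factor of each of 2518 genes at 2000 UMIs per cell in the clone (vertical axis, log scale) against other Cd8b1 cells (horizontal axis, log scale), with the line of equal values. Most points lie below the line; Gzma is at 11.5 and 14.1, and Ccl5 at 8.10 and 66.3.

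Tigit, Lag3, Pdcd1 and Tox, which were within 2-fold of expanded cells (log2 ratios of 0.15, 0.20, 0.46 and 0.54), varied less from cell to cell than in other Cd8b1 cells. At 2000 UMIs, Tigit had a Fano factor of 1.02 in the clone and 2.32 in other Cd8b1 cells, Lag3 1.14 and 2.43, Pdcd1 1.15 and 1.73, and Tox 1.13 and 1.48. Of these only Tigit was near the clone's median of 1.01, whereas the other three were near its 90th percentile of 1.14. Cd200r2 had 1.35 in the clone and 1.38 in other Cd8b1 cells. Cd7 was more variable (2.11), with 2, 6 and 12 UMIs at the 10th, 50th and 90th percentiles. Gene groups were also read per cell. Cytotoxic genes took 4.50% to 8.56% of the UMIs of a member (10th and 90th percentiles, median 6.396%), against 1.84% to 9.41% in expanded cells and 0.0851% to 6.51% in other Cd8b1 cells. Inhibitory receptors took 0.208% to 0.462% of UMIs in members and 0.0527% to 0.452% in expanded cells. NK-related receptors had a wider range in members (0.158% to 0.559%) than in expanded cells (0 to 0.333%), as did gamma-delta markers (0 to 0.0353% against 0 to 0.0152%) and a list of 6 genes that holds Cd200r2, Tmprss6 and Glp1r (0 to 0.106% against 0 to 0.0301%). Cd7 made up 3283 of the 3460 CPM of NK-related receptors in the clone.

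Principal components of the clone alone gave no strong axis. The first 2 explained 0.575% and 0.396% of the variance, and the tenth 0.227%. The first had a Spearman correlation of 0.41 with the number of genes and 0.23 with the UMIs of a cell, over the 1118 cells. Ablim1, Itpkb, Fryl and Peak1 were at its upper end, and Cenpx, Fos, Gpx1 and Hist1h2ap at its lower end. The second separated members with more Tmprss6 from members with more Jun. Between the 279 members with the highest and the 279 with the lowest values, Tmprss6 was 291 against 50.4 CPM, Tox2 78.5 against 16.2 CPM, Prr5l 162 against 59.4 CPM, Tnfrsf9 571 against 270 CPM, Ikzf2 218 against 128 CPM and Glp1r 147 against 77.4 CPM. In the other direction, Jun was 122 against 1056 CPM, Fosb 111 against 385 CPM, Ly6e 269 against 736 CPM and Hopx 92.9 against 185 CPM. The 10 genes of the upper end thus included the receptor and transcription factor genes Havcr2, Tox2 and Tnfrsf9, and those of the lower end the immediate early genes Jun, Fos and Fosb. These cells were sorted along the axis by the same genes, so the values are a description. The Spearman correlation of this component with the Scrublet score was −0.43, and its part was not tested.

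Genes of cycling cells were found in a part of the clone. A UMI of Mki67 or Top2a was found in 294 members, 26.3% (23.7 to 29.0), and in 11.1% (9.30 to 13.1) at 2000 UMIs. Expanded cells had 34.4% and 14.7% (12.4 to 17.3), other Cd8b1 cells 22.4% and 7.87%, and single cells 15.3% and 4.49%. The second and the third clone had 11.9% (7.35 to 18.0) and 10.4% (6.06 to 16.3) at 2000 UMIs. Thus for either gene at equal depth the share in the clone lay between those of single and expanded cells, and between those of the next clones. Both genes were found together, before thinning, in 31 members, 2.77% (1.89 to 3.91), against 3.97% (3.52 to 4.46) of other Cd8b1 cells, 6.39% (4.84 to 8.26) of expanded cells and 2.10% of single cells. The expanded cells pool clones that differ, with 3.14% in the second clone and 0.645% in the third, and the intervals cover counting error only. Free RNA in droplets can give a UMI, and its part was not tested here.

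How far free RNA reaches was read from the V genes. Trbv1 had a UMI in 1117 of the 1118 members (99.9%), in 99.7% of 328 other cells whose contigs use TRBV1, and in 4.39% of 8337 cells whose contigs use other V genes. For Trbv14, the V gene of the second clone, the share was 99.4% of 361 cells that use it and 0.984% of the large clone. The median depth of these classes was 5817 to 6641 UMIs. Cd4 had a UMI in 1.43% of members. Its level in free RNA was not tested, so the Trbv14 share (interval 0.492 to 1.75) is no reference for it.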

How the data were processed

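T cells of the bone marrow of mice were measured in 4 pools, each with an expression library and a TCR library (8 libraries). The authors made the deposited UMI counts with Cell Ranger 6.1.2 and GRCm38, per the submitters' processing notes, and no normalization had been applied. The deposited contig tables give a count of UMIs for each productive TRA or TRB contig. Pools and groups were taken from the labels. Barcodes under 200 genes or over 15% mitochondrial UMIs were left out. The barcode's contig with the most UMIs was taken for each chain. Counts were summed over cells and scaled to 1000000 (CPM), and a gene was called at a 2-fold ratio if both classes together had at least 100 UMIs. Where a class had 0, 3 counts were used as a floor. Intervals are exact at 95% (Clopper-Pearson for shares, the conditional binomial for ratios), and like floors they cover counting error only: cells of 1 clone are not replicates, so no test was made and no p-value is given. Ratios were tested on simulated counts before use. Cells were thinned to 2000 UMIs where shares or Fano factors are compared, except for shares of TCR genes and those marked as before thinning. Clustering with scanpy 1.11.5 used 4000 variable genes without TCR segments and without proliferation genes, 50 principal components, 15 neighbors and the Leiden algorithm at a resolution of 1. Doublets were scored by Scrublet at an expected rate of 0.05 and kept. Sequences and coordinates of segments come from the GRCm38 reference.

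Members and gene lists were chosen with earlier results of these data known. Genes are named if they belong to 1 of 22 lists and lead it by level or ratio, if they are among the 15 highest or 15 lowest ratios with a UMI in at least 10% of the higher class (TCR and immunoglobulin segments left out), among the 15 highest Fano factors at a mean of at least 0.1 UMI, or among the 10 at each end of the first 2 principal components of the clone. Genes named for their ratio to expanded cells (Tnfsf8) and for cells outside the main cluster were chosen after their values were seen. Some genes of these lists are not reported here.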

Additional observations from a re-analysis of the deposited data

Results flagged for a closer look

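Trbv1 transcripts were found in many cells that gave no TCR contig and so could not be assigned to the clone. Of the 1551 Cd8b1 cells of the pool without a contig, 508 had at least 3 Trbv1 UMIs, a share of 32.8% (30.4 to 35.2). The shares in the other pools were 4.62% in replicate 1 of the RUNX1::RUNX1T1 group, 8.30% in Control replicate 1 and 8.14% in Control replicate 2. These 508 cells had a median of 11030.5 UMIs, Scrublet marked 35.0% of them against 1.07% of the clone, and they lay in all 12 clusters with an entropy of 0.877. Their level of Cd200r2 was 45.0 CPM. They are part of the other Cd8b1 cells above, except where the comparison was limited to cells with both chains. Expanded and single cells do not hold them. Without any other Cd8b1 cell that had a Trbv1 UMI, a choice made after seeing the data, 1015 genes were 2-fold higher in the clone and 1044 lower.

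Trav17, a V gene that no contig of the clone uses, had a UMI in 50.6% (47.7 to 53.6) of the 1118 members, at 0.735 UMIs per cell. It was found in 92.3% of 39 cells with a TRAV17 contig, at 4.44 UMIs per cell, and in 0.702% of 8829 other cells with contigs. Trav6-6, the V gene of the clone's alpha contig, had a UMI in 14 members of the expression library (1.25%), and Traj48 in 28.4%. Among 300 other cells with a TRAV6-6 contig, 2 (0.667%) had a Trav6-6 UMI, so this gene was seldom read in its other users as well. The contig tables used here hold productive chains, and other chains were not analysed here.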

How the results depend on the processing

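No paired analysis was possible because the clone was found in 1 pool, and leaving out a replicate could not be done for the same reason. The TRB CDR3 alone gave 1268 cells. The clone's share was 14.8% of cells with at least 2 Cd8b1 UMIs, 13.0% when a UMI of either Cd8a or Cd8b1 was enough, and 18.9% of Cd8b1 cells with both chains. Genes 2-fold higher in the clone numbered 613 with median of ratios scaling, 2810 without the UMI minimum, 545 with at least 500 UMIs, 1404 against single cells, 160 against expanded cells and 552 after thinning. Genes 2-fold lower numbered 546 with at least 500 UMIs, 228 against expanded cells and 572 after thinning. The share of the clone in its largest cluster was 94.7% at a resolution of 0.5, 49.1% at 2, 84.5% with proliferation genes kept and 94.6% after thinning, and its entropy 0.136, 0.366, 0.240 and 0.132.

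For 137 named genes under 9 alternatives, 1232 log2 ratios were computed, of which 716 moved by less than their interval, 503 moved further, and 13, of genes called at 2-fold, changed sign, all against expanded cells. These were Tdrp (0.30), Gm14085 (0.23), Havcr2 (−0.73), Tox2 (−0.82), Prdm1 (−0.26), Gzmb (−0.24), Gzmk (−0.15), Ccl3 (−0.073), Il10ra (−0.45), Hbb-bs (−0.95), Hbb-bt (−0.70), Foxp3 (0.52) and Cd79b (0.14). With median of ratios scaling, Runx3 (0.78), Zwint (0.88), Il10ra (0.91), Cd3e (0.92), Cd8a (0.90) and Trac (0.97) were no longer 2-fold higher, while Klrd1 (−1.10), Icos (−1.17), Cxcr3 (−1.18), Fos (−1.03), Jun (−1.08) and Ifit3 (−1.10) became 2-fold lower. Of the 111 genes called at 2-fold, 64 passed 2-fold the same way in every alternative, and 100 in every one but expanded cells; the causes were not tested. A gene at a few CPM has a UMI in few members at 2000 UMIs, and shares of such genes say little on their absence.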
